A study of Mus musculus with 6 samples.

Results

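Integrins and focal adhesion proteins connect a cell to the matrix around it, and 39 of their genes were followed in primary mouse myoblasts exposed to TGFb. The genes were taken from a list of integrin subunits and core focal adhesion proteins, matched by the gene names in the arrays' own annotation, which gave 60 probes among the 55681 non-control probes and 39 of 36499 named genes. One set of cells was treated with TGFb for 4 days (3 arrays) and the other was left untreated (3 arrays). All were myoblasts sorted by flow cytometry from skeletal muscle of male C57BL/6 mice aged 3 months and grown in serum-rich medium. The labels name no transgene or mutant allele. The form and dose of TGFb, the surface proteins used in the sort, and whether animals were pooled are not given in the sources used here.

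Integrins are pairs of 1 alpha and 1 beta subunit that span the membrane. The pair decides which matrix protein is bound, and the tail of the beta subunit inside the cell binds talin and kindlin, on which vinculin, the ILK complex, paxillin, the kinase FAK and actin cross-linkers such as filamin assemble. In skeletal muscle the laminin receptor built from alpha7 and beta1 anchors the fibre to its basement membrane, while the collagen receptor with alpha11 is known from fibroblasts and myofibroblasts. TGFb is a secreted factor best known in muscle for its part in fibrosis, and integrins that contain alphav can release it from its latent form.

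Levels are given as log2 of the processed probe intensity relative to the 75th percentile of the same array, so 0 is that percentile and 1 unit is a 2-fold difference in intensity. Levels of different probes cannot be set against each other. Sums of marker levels given below are carried by their brightest probes, so they do not measure the amount of a cell type. Some of those probes also differ by scan day, and the groups hold unequal numbers of arrays from each day. Across arrays the 75th percentile lay between 879.2 and 1578.4 intensity units, and 52.0% to 56.7% of spots were well above background. Of the 39 genes, 36 had a probe that cleared background on 3 or more of the 6 arrays and were tested. Itga2 was above background on 0 TGFb arrays and 1 untreated array, Itgb7 on none, and Itgb8 on 1 array of each group, so these 3 subunits have no measured change here. No probe of the 39 genes was saturated.

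Facts about the arrays bear on every result. First, they were scanned on 2 days, so that day 1 held TGFb array 1 with untreated arrays 1 and 2, and day 2 held TGFb arrays 2 and 3 with untreated array 3, and the first principal component of all genes (72.4% of the variance) separated the days. Each comparison was therefore fitted in limma with group as the only term and again with scan day as a covariate, called the day-adjusted fit. Second, untreated replicates 1 and 2 carry the same number in their file names and differed by an SD of 0.0869 log2 units between matching spots, against 0.263 for TGFb replicates 2 and 3, also scanned on 1 day, and 0.0378 to 0.0741 for repeat spots of a probe on a single array. The labels call them separate experiments, but they may share a culture, and a further fit kept the day covariate and counted their mean as 1 sample. The arrays also lay on 4 slides: slide 1 held TGFb array 1 and untreated array 2, slide 2 held TGFb array 2 and untreated array 3, and TGFb array 3 and untreated array 1 each had a slide of their own. In the text "rose" and "fell" refer to the day-adjusted fit at an adjusted p under 0.05 unless another fit is named. The fit planned as the main one had group as its only term, and the day-adjusted fit called more genes. Both of these fits count untreated replicates 1 and 2 as separate samples.

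In the day-adjusted fit, TGFb-treated myoblasts had higher mRNA than untreated cells for the collagen receptor subunit Itga11 and the beta subunits Itgb3 and Itgb4. The same held for filamin A (Flna), Hic-5 (Tgfb1i1) and the PDZ-LIM protein Pdlim7. The treated cells had lower mRNA for Itga8, Itga9, Itgb6, melusin (Itgb1bp2) and filamin C (Flnc). Of these, Itga8 was above background on 1 of 3 TGFb arrays, so it entered the test through the untreated arrays, where it was high. Changes among these 11 genes ran from 9.0-fold higher for Itga11 to 5.27-fold lower for Itgb6 among probes above background on all arrays. With untreated replicates 1 and 2 as 1 sample, only Itga11, Itgb3, Itgb4, Pdlim7 and Itgb1bp2 kept their call. With group as the only term, only Itga11 and Itgb1bp2 were called. The core of the adhesion, meaning talins, kindlin-2, vinculin, zyxin, ILK, parvins, PINCH proteins, FAK, p130Cas and paxillin, held no gene that passed the test in the day-adjusted fit on all 6 arrays. In RNA from whole cultures, fewer cells of a type and less RNA per cell cannot be told apart.

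In the day-adjusted fit, 6 of the 36 tested genes rose (16.7%) and 5 fell (13.9%), against 4.60% and 5.61% of all 21960 genes tested. Leaving out single arrays moved these counts: 2 rose without untreated array 3, 3 without TGFb array 1 or untreated array 1, and 4 without untreated array 2. Of the 36, 9 fell without TGFb array 3, 2 without TGFb array 1 and 1 without untreated array 1, 2 or 3. The counts over all genes moved as well. Without untreated array 3, 147 of all genes rose, and 346, 322 and 293 rose without TGFb array 1, untreated array 1 and untreated array 2. Without TGFb array 3, 1808 of all genes fell, and 316 fell without TGFb array 1. Without untreated arrays 1, 2 and 3 in turn, 351, 324 and 183 fell. With group as the only term, Itga11 rose and Itgb1bp2 fell, 2.78% of the 36 in each direction, where 0.697% of all genes rose and 0.706% fell. When untreated replicates 1 and 2 were counted as 1 sample and scan day was kept, Itga11, Itgb3, Itgb4 and Pdlim7 were called higher (11.1%) and Itgb1bp2 lower (2.78%), against 1.40% and 1.56% of all genes. Counting arrays alone, all TGFb arrays lay above all untreated arrays for 7 genes (19.4%) and below them for 5 (13.9%), where this held for 8.45% and 9.51% of all genes. Itga8, among the lower genes here and in the day-adjusted fit, passed the filter on dim probes only through its untreated arrays. The shares were above the background in both directions in each of these counts, but the counts with group only and of lower genes with the shared untreated sample are of 1 gene each. The genes were chosen with earlier results of these data known, so the shares are a description, and the excess itself was not tested. With slide as a block, which rests on the 2 slides that held both groups, Itga11 (adjusted p = 0.0211) and Itgb3 (0.0211) were called higher and Itgb6 (0.0354), Itgb1bp2 (0.0331) and Itga4 (0.0425) lower. Of all genes, 365 were called higher and 411 lower with slide as a block. The calls of Itgb4 (0.0571), Pdlim7 (0.0526), Flna (0.0749), Tgfb1i1 (0.0855), Itga8 (0.0864), Itga9 (0.0941) and Flnc (0.0993) were lost in that fit, with the same sign within both slides for each of these 7 genes. The median log2 fold change of the 36 was -0.03 in the day-adjusted fit, against 0.04 for all genes, and 18 had a positive and 18 a negative value. A change beyond 1 log2 unit was found for 11 of the 36 (30.6%) and for 11.1% of all genes.

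**Figure D1:**
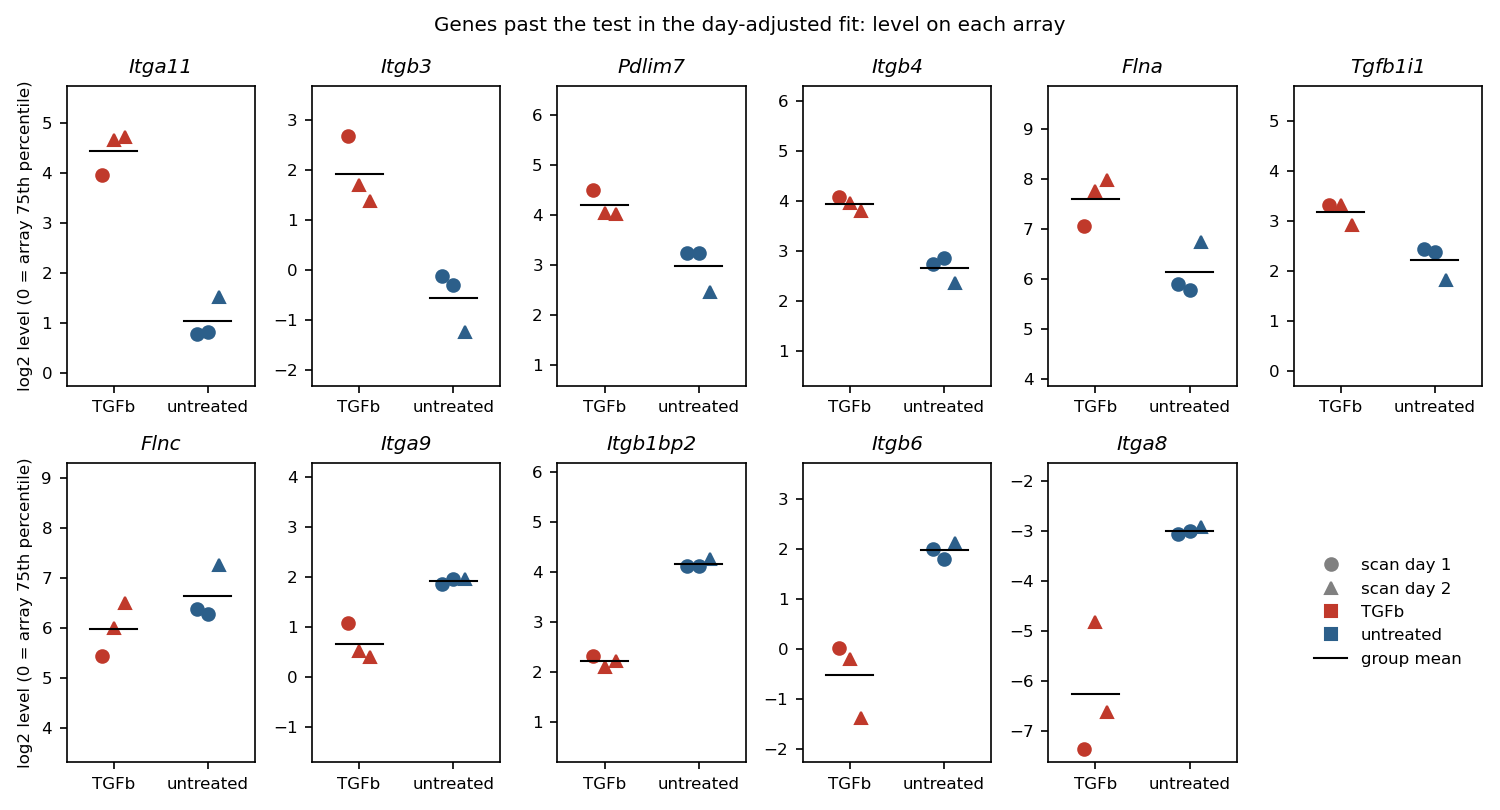
Log2 level (y axis, 0 is the 75th percentile of the array) of the 11 genes past the test in the day-adjusted fit, for 3 TGFb arrays (left in each panel) and 3 untreated arrays (right). Circles are arrays of scan day 1, triangles of scan day 2 and lines are group means; every panel spans the same number of log2 units, and only Flnc shows overlapping groups.

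Among the collagen-binding alpha subunits, Itga11 rose and neither Itga1 nor Itga10 passed the test. Itga11 encodes alpha11, which pairs with beta1 and binds fibrillar collagen. Its level was 3.95, 4.65 and 4.72 on TGFb arrays 1 to 3, against 0.77, 0.81 and 1.51 on untreated arrays 1 to 3. The groups lay more than 2 log2 units apart at their nearest arrays. The log2 fold change was 3.17 ± 0.13 (SE, n = 3 per group, adjusted p = 0.00149) in the day-adjusted fit and 3.41 ± 0.36 (adjusted p = 0.0167) with group only. Within the scan days the difference was 3.17 on day 1 and 3.18 on day 2, and it was called after leaving out any of the 6 arrays in turn in the day-adjusted fit (adjusted p of 0.00427 to 0.0268). With group as the only term the call held in 2 of those 6 cases, without TGFb replicate 1 and without untreated replicate 3. Of 8 tested fibroblast and fibro-adipogenic markers, 0 rose and 3 fell (Dcn, Thy1 and Osr1). Pdgfrb did not pass the test (0.92, adjusted p = 0.0676), and Dcn was above background on 2 of 3 TGFb arrays. The markers' summed level, mostly Col3a1, was 48.8 to 107 times the 75th percentile on TGFb arrays. On untreated arrays it was 40.1 to 94.1 times. Lum and Dpt were above background on no array. The part of these markers in the result was not tested.

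Itga1, which encodes alpha1, a receptor for basement membrane and fibrillar collagens, was measured by 2 probes that did not give the same answer. The brighter probe read -5.13, -1.99 and -1.36 on TGFb arrays and -4.90, -4.98 and -3.86 on untreated arrays, with a log2 fold change of 1.00 (95% interval -0.41 to 2.41, adjusted p = 0.316). The other read -5.26, -6.01 and -6.68 on TGFb arrays and -4.05, -4.28 and -4.50 on untreated arrays, and its fold change was -1.47 (adjusted p over all probes = 0.0399). That second probe was above background on 1 of 3 TGFb arrays and on all 3 untreated arrays. The groups overlapped for the first probe and were apart, in the other direction, for the second, so no direction can be given for Itga1. The probes are shown because they sit at different places of the gene on chromosome 13, minus strand, mm9, the first at chr13:115821387-115825525 and the second at chr13:115756765-115758419, both spans longer than the 60 bases of the probe:
Itga1 probe 1: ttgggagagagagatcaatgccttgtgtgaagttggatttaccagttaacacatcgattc
Itga1 probe 2: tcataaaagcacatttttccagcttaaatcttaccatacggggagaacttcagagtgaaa
Itga10, a collagen receptor subunit of cartilage, had a log2 fold change of 0.01 (95% interval -0.40 to 0.42).

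The laminin-binding alpha subunits Itga3, Itga6 and Itga7 all had negative values on both scan days and none passed the test. Itga7, the alpha7 subunit of muscle, had a log2 fold change of -0.66 (95% interval -1.06 to -0.27, adjusted p = 0.0591), with 6.12, 6.66 and 6.96 on TGFb arrays and 6.78, 6.71 and 7.52 on untreated arrays. Itga6, which pairs with beta1 or beta4, stood at -0.65 (-1.05 to -0.24, adjusted p = 0.0676), and Itga3 at -0.90 (-1.52 to -0.28, adjusted p = 0.0834). These intervals allow falls of up to 1.06, 1.05 and 1.52 log2 units, and they leave out 0 while the adjusted p misses the threshold. Itga7 was called lower in the authors' normalized table fitted with group as the only term (adjusted p = 0.0449), and with slide as a random block both Itga7 (0.0333) and Itga3 (0.043) were, as they were in the day-adjusted fit without TGFb array 3 (0.038 and 0.0335).

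Of the alpha subunits that recognise the RGD motif, Itga8 fell, and Itga5 and Itgav did not pass the test. Itga8, which encodes alpha8, a receptor for nephronectin and fibronectin, read -7.36, -4.82 and -6.62 on TGFb arrays and -3.06, -3.00 and -2.93 on untreated arrays. It was above background on 1 TGFb array and on all 3 untreated arrays, so the sizes on the TGFb side are readings close to background. The fold change was -3.56 ± 0.60 in the day-adjusted fit (adjusted p = 0.0245), and the adjusted p was 0.0951 with group only and 0.0882 with untreated replicates 1 and 2 as 1 sample. With a model-based background correction its size was -1.22, and in the authors' table -1.45, and the sign was the same in all 25 settings tried for Itga8. In the day-adjusted fit the call was lost without TGFb array 1 or any 1 untreated array (adjusted p of up to 0.144). Itga5, the main fibronectin receptor subunit, had -0.07 (95% interval -0.65 to 0.51), and Itgav, the alphav subunit shared by the receptors that release TGFb, had 0.45 (-0.03 to 0.93).

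The closely related subunits alpha4 and alpha9 had negative values, and Itga9 fell. Itga9 pairs with beta1 and binds tenascin-C and osteopontin. It read 1.09, 0.53 and 0.41 on TGFb arrays and 1.87, 1.97 and 1.97 on untreated arrays, with no overlap. The change was -1.16 ± 0.20 (adjusted p = 0.0261), a level 2.24-fold lower, with adjusted p values of 0.135 with group only and 0.0961 with the shared untreated sample. The day-adjusted call was lost without TGFb array 2 or any 1 untreated array (adjusted p of up to 0.157). Itga4, which pairs with beta1 to bind VCAM-1 and fibronectin, read -0.77, 2.04 and 3.55 on TGFb arrays and 1.44, 1.44 and 3.64 on untreated arrays. For Itga4 the arrays of scan day 2 were high in both groups, the groups overlapped, and the change was -1.53 (95% interval -2.83 to -0.22, adjusted p = 0.136). It was called lower with slide as a block (-1.90, adjusted p = 0.0425) and in the day-adjusted fit without TGFb array 3 (adjusted p = 0.0107).

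Among the 5 tested beta subunits, Itgb3 and Itgb4 rose, Itgb6 fell, and Itgb1 and Itgb5 did not pass the test. Itgb3 encodes beta3, the partner of alphav in the vitronectin receptor. It read 2.67, 1.69 and 1.37 on TGFb arrays and -0.12, -0.30 and -1.25 on untreated arrays. In both groups the day 1 arrays were higher than the day 2 arrays, and within each day the gap was alike, 2.88 on day 1 and 2.78 on day 2. The fold change was 2.83 ± 0.16 (adjusted p = 0.00195; 0.0191 with the shared untreated sample), a 7.12-fold rise, and it was called without any of the 6 arrays in turn. With group only it missed the threshold (2.47, adjusted p = 0.0904). A second, dimmer Itgb3 probe gave 2.63 with an adjusted p over all probes of 0.0988. The spot of that probe on untreated array 3 was an outlier and was left out. The value of 2.63 thus rests on day 1, with TGFb array 1 against untreated arrays 1 and 2. Unlike the brighter probe, the dimmer one was lower on the day 1 TGFb array (-2.25) than on the day 2 TGFb arrays (1.64 and 3.16). Itga2b, the other partner of beta3 and a platelet subunit, did not pass the test (-0.36, adjusted p = 0.311), nor did Itgav.

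Itgb4 encodes beta4, which pairs with alpha6 and holds laminin at hemidesmosomes in epithelia. It read 4.07, 3.95 and 3.79 on TGFb arrays and 2.73, 2.86 and 2.35 on untreated arrays, so the groups did not overlap. The change was 1.40 ± 0.15 (adjusted p = 0.00706; 0.0481 with the shared untreated sample; 0.106 with group only), or 2.63-fold. In the day-adjusted fit the call was lost without TGFb replicate 1, untreated replicate 1 or untreated replicate 3, with adjusted p values of up to 0.0849.

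Itgb6 encodes beta6, which pairs with alphav and is known in epithelia for releasing latent TGFb. It read 0.03, -0.19 and -1.38 on TGFb arrays and 2.01, 1.81 and 2.13 on untreated arrays, with no overlap. The change was -2.40 ± 0.41 (adjusted p = 0.0263; 0.0836 with the shared untreated sample; 0.0617 with group only), or 5.27-fold lower. Without TGFb array 1 or any 1 untreated array the day-adjusted call was lost (adjusted p of up to 0.216). A second probe fell as well (-1.92, adjusted p over all probes = 0.014), from a different place in the gene. Both probes are shown for that reason, and lie on chromosome 2, minus strand, mm9, the first at chr2:60438632-60443247, a span longer than the probe, and the second at chr2:60492788-60492847:
Itgb6 probe 1: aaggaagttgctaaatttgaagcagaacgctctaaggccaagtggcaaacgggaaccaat
Itgb6 probe 2: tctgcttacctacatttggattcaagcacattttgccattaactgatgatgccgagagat
Itgb1, the beta subunit shared by most of the alpha subunits above, had 0.50 (95% interval 0.15 to 0.85, adjusted p = 0.0865) by its brighter probe and 0.99 (adjusted p over all probes = 0.0459) by the other. In the authors' table Itgb1 was called higher. Itgb5, another partner of alphav, had 0.39 (-0.03 to 0.81), and its 3 TGFb arrays (4.29, 4.20 and 4.52) lay above its 3 untreated arrays (3.90, 3.74 and 4.05) by a narrow margin.

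**Figure D2:**
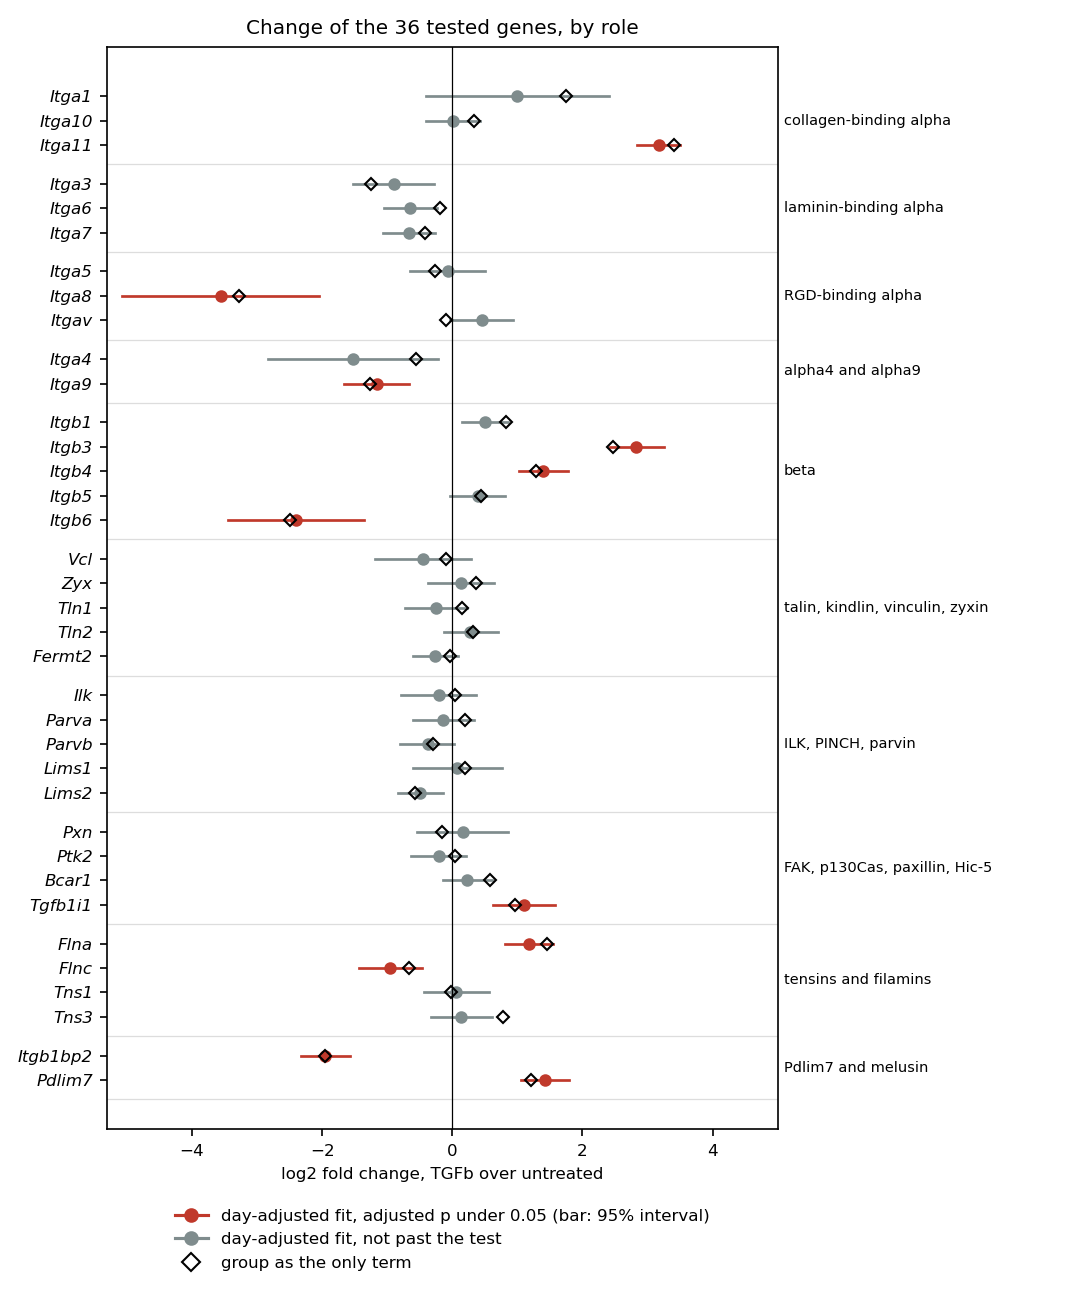
Log2 fold change of TGFb over untreated (x axis) for the 36 tested genes grouped by role (rows): filled circles with bars are the estimates and 95% intervals in the day-adjusted fit, red where the adjusted p was under 0.05, and open diamonds are the estimates with group as the only term. The talin, vinculin and ILK rows run from -0.49 (Lims2) to 0.28 (Tln2). The integrin rows run from -3.56 (Itga8) to 3.17 (Itga11), with Itga5 (-0.07) and Itga10 (0.01) among those near 0.

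The proteins that couple integrins to actin through talin showed no change past the test. Talin 1 (Tln1) had a log2 fold change of -0.25 and talin 2 (Tln2) of 0.28. Kindlin-2 (Fermt2), which activates integrins together with talin, had -0.26, vinculin (Vcl), which reinforces the talin-actin link under force, had -0.45, and zyxin (Zyx), a LIM protein of mature adhesions, had 0.13. The widest of their 95% intervals was that of Vcl, -1.19 to 0.29, so a fall of up to 1.19 log2 units in vinculin mRNA is within the error. Vcl read 3.68, 4.40 and 5.37 on TGFb arrays and 4.21, 4.29 and 5.22 on untreated arrays, which overlap. Without TGFb array 3 it was called lower in the day-adjusted fit (-0.67, adjusted p = 0.0446).

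The ILK complex joins ILK, a scaffold named as a kinase, with PINCH (Lims1, Lims2) and parvin (Parva, Parvb) proteins on the beta tail, and none of its 5 genes passed the test. Values ran from -0.49 (Lims2) to 0.08 (Lims1), with Ilk at -0.21. Lims2 had no overlap between groups (-1.77, -2.01 and -1.92 on TGFb arrays, against -1.23, -1.16 and -1.55 on untreated arrays) and an adjusted p of 0.0899, and it was called lower with slide as a random block (adjusted p = 0.0254). Of 4 signalling adaptors, FAK (Ptk2, -0.21), p130Cas (Bcar1, 0.23) and paxillin (Pxn, 0.16) did not pass the test. Ptk2 and Pxn are the kinase and the scaffold through which adhesions signal, and their 95% intervals were -0.63 to 0.21 and -0.54 to 0.86.

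The fourth signalling adaptor was Hic-5, a paxillin relative encoded by Tgfb1i1, a gene symbol that refers to induction by TGFb. It read 3.32, 3.32 and 2.92 on TGFb arrays and 2.44, 2.38 and 1.83 on untreated arrays, with no overlap. The rise was 1.10 ± 0.19 (adjusted p = 0.0256), or 2.15-fold, and it was not called with group only (0.263) or with the shared untreated sample (0.106). Leaving out TGFb array 1 or any 1 untreated array also ended the day-adjusted call (adjusted p of up to 0.20).

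The filamins, which cross-link actin and bind beta tails, moved in opposite directions. Flna, the broadly expressed filamin A, read 7.06, 7.77 and 7.98 on TGFb arrays and 5.90, 5.78 and 6.74 on untreated arrays. The groups did not overlap, and day 2 arrays were higher in both. The rise was 1.18 ± 0.15 (adjusted p = 0.0104; 0.0689 with the shared untreated sample; 0.213 with group only). Flnc, the filamin of striated muscle Z-discs, read 5.45, 6.00 and 6.51 on TGFb arrays and 6.39, 6.28 and 7.26 on untreated arrays, where the groups overlap. The fall appeared within both days (-0.89 and -1.01) and was -0.95 ± 0.19 (adjusted p = 0.0405; 0.151 with the shared untreated sample; 0.646 with group only). Both filamin calls were lost in the day-adjusted fit without TGFb array 1 or any 1 untreated array, with adjusted p values of up to 0.0945 for Flna and 0.25 for Flnc. Markers of smooth muscle and pericytes moved in part beside the rises of Flna and Tgfb1i1: of 7 tested, Cnn1 and Rgs5 rose and Des fell. The markers' summed level, mostly Acta2 and Mcam, was 482 to 866 times the 75th percentile on TGFb arrays. On untreated arrays it was 400 to 668 times. Myh11 was above background on no array. The part of these markers in the result was not tested. Tensins, which bind beta tails in fibrillar adhesions, gave 0.06 (Tns1) and 0.14 (Tns3). Tns3 differed by scan day in both groups, with 3.85 on the day 1 TGFb array and 3.83 and 3.78 on the day 1 untreated arrays, but 5.62 and 6.08 on the day 2 TGFb arrays and 5.61 on the day 2 untreated array.

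Pdlim7, the enigma protein that ties kinases and actin filaments together, read 4.51, 4.05 and 4.02 on TGFb arrays and 3.24, 3.24 and 2.47 on untreated arrays. The groups did not overlap, and the rise was 1.42 ± 0.14 (adjusted p = 0.00616; 0.0455 with the shared untreated sample; 0.211 with group only), or 2.68-fold. A second probe rose too (1.01, adjusted p over all probes = 0.0237), while the remaining probe did not pass the test (-0.27). Without untreated replicate 3 the call in the day-adjusted fit was lost (adjusted p = 0.0708).

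Melusin, encoded by Itgb1bp2, is a chaperone-like protein of striated muscle that binds the tail of beta1 and is known for its role in the heart's response to load. It read 2.32, 2.10 and 2.21 on TGFb arrays and 4.12, 4.11 and 4.26 on untreated arrays. Each group was tight and the gap between them was many times the spread. The change was -1.95 ± 0.15 in the day-adjusted fit (adjusted p = 0.00317; 0.0267 with the shared untreated sample) and -1.95 ± 0.24 with group only (adjusted p = 0.0232), which is 3.86-fold lower. The difference was -1.79 on day 1 and -2.11 on day 2. In the day-adjusted fit it was called without any of the 6 arrays in turn (adjusted p of up to 0.045), and with group only it was called in none of those cases. Myoblast markers bear on a muscle-restricted gene: of 10, 9 were above background on all arrays (Myf5 was not), their summed level was 370 to 626 times the 75th percentile on TGFb arrays and 454 to 657 times on untreated arrays, and of 9 tested 1 rose (Ncam1) and 2 fell (Des and Chrnd). Their part in the result was not tested. The melusin probe, the single one for this gene and so the base of the result, lies at chrX:98647915-98648214 (mm9, plus strand), also a span longer than the probe:
Itgb1bp2 probe: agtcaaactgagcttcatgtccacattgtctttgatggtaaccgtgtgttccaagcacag

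Across both scan days, 31 of the 36 genes had the same sign (86.1%), against 67.9% of all genes, and all 11 called genes were among them. The days share no array, but the calls rest on both days, so this is a description. The 5 exceptions included Itga1, at -0.19 on day 1 and 2.18 on day 2. Itga4 kept its sign but had -2.21 on day 1 and -0.85 on day 2.

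**Figure D3:**
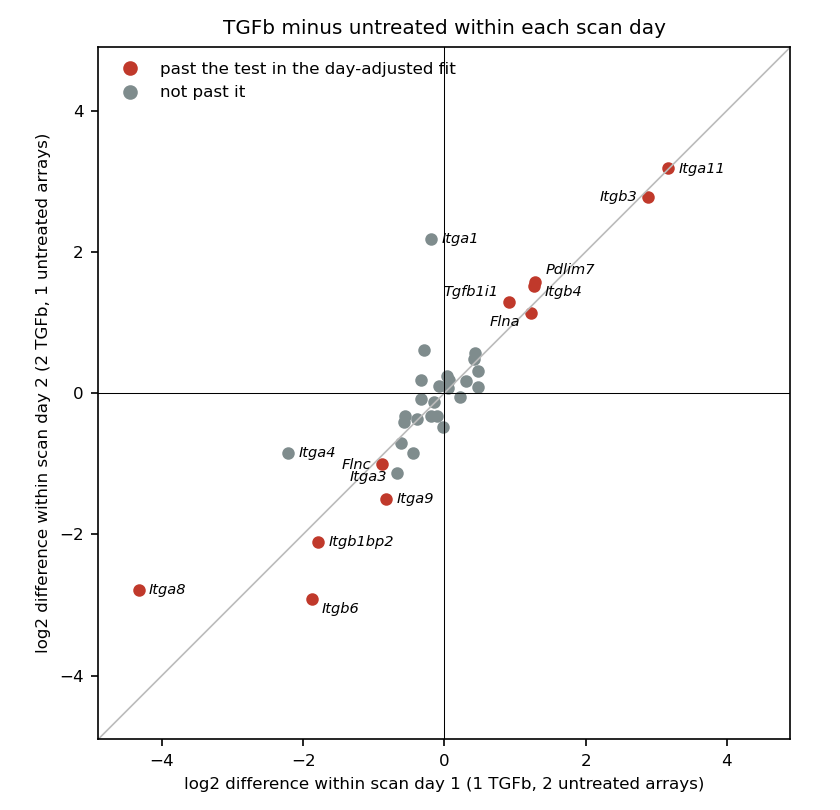
Log2 difference of TGFb minus untreated within scan day 1 (x axis) and within scan day 2 (y axis) for the 36 tested genes, red where the gene passed the test in the day-adjusted fit; the grey line marks equal differences. Itga11 and Itgb3 lie on the line at the top right, Itgb1bp2, Itgb6 and Itga8 at the lower left, and Itga1 is apart.

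Among the genes with more than 1 tested probe, Itgb3, Pdlim7, Itga1 and Itgb1 had probes on different sides of the threshold. In Itgb3 and Itgb1 these probes had the same sign, and in Itga1 and Pdlim7 at least 1 probe had the opposite sign.

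**Figure D4:**
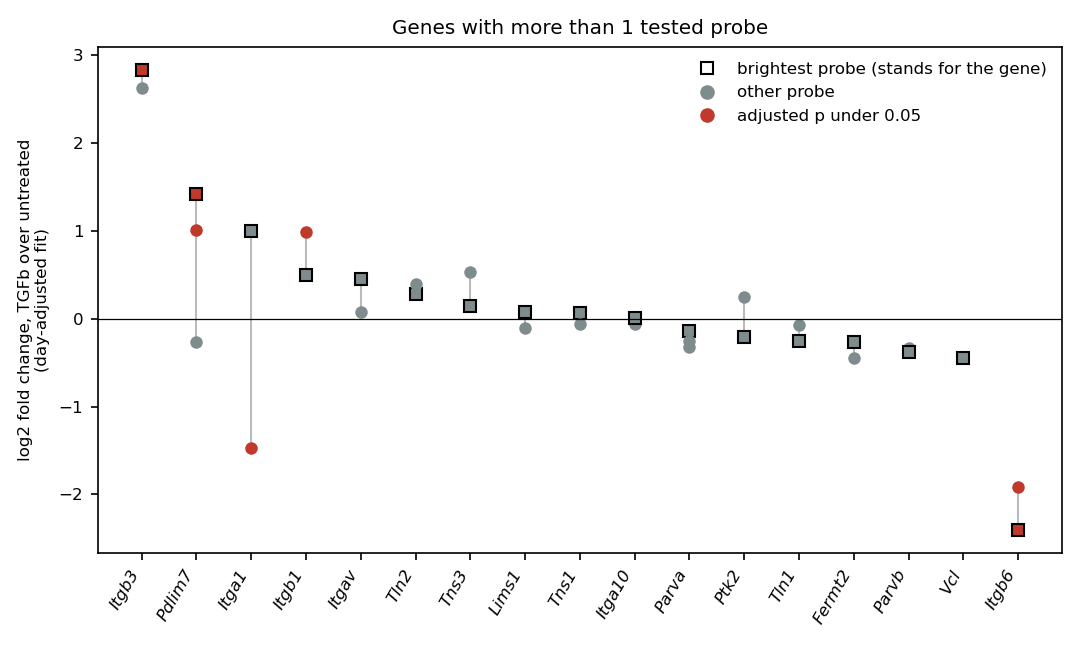
Log2 fold change in the day-adjusted fit (y axis) for each tested probe of the genes with more than 1 tested probe (x axis); squares mark the brightest probe, which stands for the gene, circles the others, and red an adjusted p under 0.05 over all probes. The 2 Itgb6 probes are both low, and the 2 Itga1 probes lie on opposite sides of 0.

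Other genes of adhesion sites were taken from lists on ligands, activation, signalling and linkers. These lists too were chosen with earlier results of these data known, so their shares are a description. Of 26 tested ligands, 10 rose (38.5%) and 1 fell (3.85%) in the day-adjusted fit, against 4.60% and 5.61% of all genes. With the shared untreated sample 6 were higher and 0 lower, and with group only 5 and 0, the 4 genes named below among them in both. Over all genes the shares were 1.40% higher and 1.56% lower with the shared untreated sample, and 0.697% and 0.706% with group only. The smallest adjusted p values were those of Spp1 (osteopontin, bound by alphav and alpha9 integrins), which rose by 2.39 ± 0.21 (adjusted p = 0.00431), Thbs1 (thrombospondin 1) by 3.19 ± 0.23 (0.00266), Ltbp2, a latent TGFb binding protein family member of elastic fibres, by 3.54 ± 0.20 (0.00187), and Ccn2, a matricellular integrin ligand, by 3.00 ± 0.14 (0.00156). The median of the ligands was 0.44 beside 0.04 for all genes. Spp1 read 7.04, 7.0 and 7.53 on TGFb arrays and 4.57, 4.87 and 4.80 on untreated arrays, with no overlap. Of 19 genes of integrin activation and trafficking 0 rose and 3 fell (15.8%; 2 lower with the shared untreated sample and 1 with group only), with the caveolar coat gene Cav1 at -2.22 ± 0.15 (adjusted p = 0.00251), above background on 1 of 3 TGFb arrays, Rasip1, a Rap1 effector, at -1.60 ± 0.14 (0.00476) and Kank1, a talin-binding protein at the rim of adhesions, at -1.52 ± 0.28 (0.0327). Kank1 was not called with the shared untreated sample (0.103), and Cav1 was the gene called with group only (0.0226). Plaur, the urokinase receptor, did not pass the test (0.73, adjusted p = 0.0711). Of 30 kinases and signalling genes 2 rose and 2 fell (6.67% each, close to the shares over all genes): Nedd9, a relative of p130Cas, rose by 1.52 ± 0.14 (0.00464) and Nck2 by 0.89 ± 0.16 (0.0291), while Arhgef6 (-1.16 ± 0.14, 0.0096) and the Src-family kinase Fyn (-0.71 ± 0.15, 0.0461) fell. With the shared untreated sample Nedd9 kept its call (0.0384) and Nck2 (0.143), Arhgef6 (0.0665) and Fyn (0.189) lost theirs, and with group only none of the 4 was called. Of 39 other adaptors and actin linkers 7 rose (17.9%) and 4 fell (10.3%), against 2 higher and 1 lower with the shared untreated sample and 1 and 0 with group only, with Csrp2, a LIM protein of smooth muscle, at 2.51 ± 0.13 (0.0018), Tes (testin), a zyxin partner, at 2.66 ± 0.16 (0.00196), Ezr (ezrin) at 1.40 ± 0.16 (0.00802) and the Z-disc protein gene Ldb3 at -2.28 ± 0.26 (0.00804). Ezr was not called with the shared untreated sample (0.0546), and Csrp2 alone of these was called with group only (0.015). The median of this list was -0.06. Of 9 blood cell and other integrin subunits 4 could be tested, and 0 passed: the leukocyte subunits Itgal (0.57, adjusted p = 0.627), Itgam (0.36, 0.334) and Itgb2 (-0.66, 0.483), and Itga2b. Of 10 blood cell markers on the array, 3 (Itgam, Csf1r and Cd3e) were above background on all 6 arrays and 3 on none, Cd68 and Lyz2 among them. The markers' summed level, nearly all of it Itgam, was 16.8 to 117 times the 75th percentile on TGFb arrays. On untreated arrays it was 16.7 to 66.8 times, and of 5 tested 0 rose and 0 fell. Itgam differed by scan day in both groups. It read 3.96 on the day 1 TGFb array and 3.95 and 3.97 on the day 1 untreated arrays. On day 2 it read 6.65 and 6.85 on TGFb arrays and 6.03 on the untreated array.

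**Figure D5:**
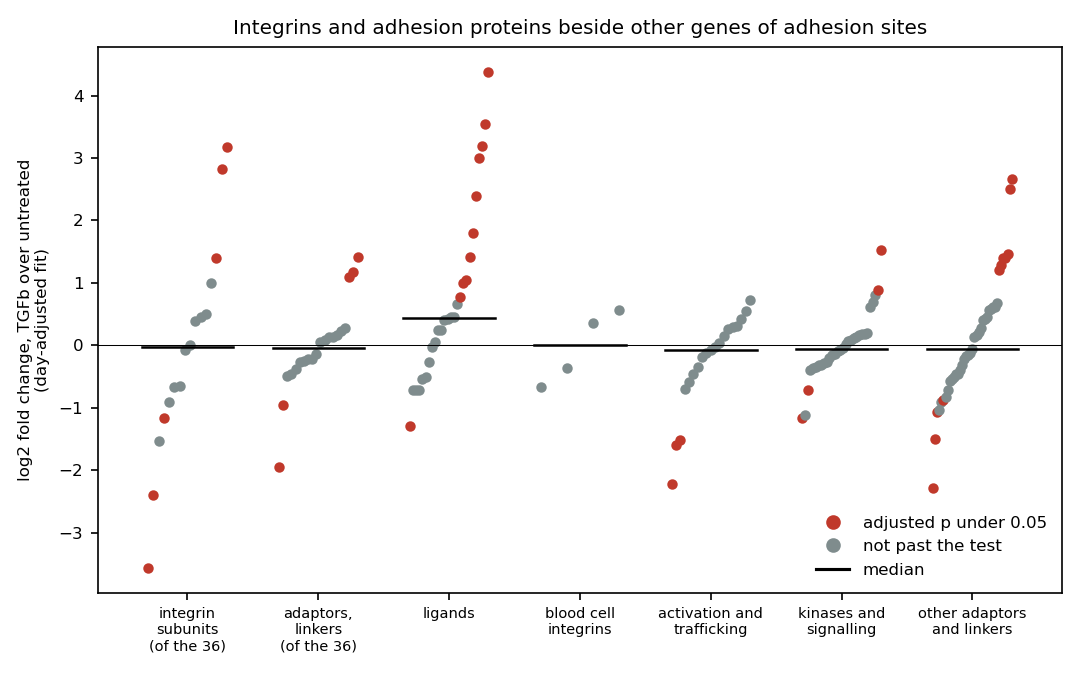
Log2 fold change in the day-adjusted fit (y axis) of every tested gene of the integrin subunits, the adaptors and linkers described above, and 5 further lists of adhesion genes (x axis); red marks an adjusted p under 0.05 and black lines are medians. The ligands have their median at 0.44, and the other lists lie around 0.

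RefSeq promoters, from 250 bases before the transcription start to 50 after it (GRCm38.p6), were at hand for 28 of the 39 genes, 35 promoters in all. Itgb3, Itgb4, Itgb1bp2 and Tgfb1i1 had no entry. They were searched on both strands for the CArG box of serum response factor, the SMAD motif CAGAC and the TEAD motif GGAATG. The CArG box was in 3 of the 35 (Vcl, Fermt2 and the second promoter of Itgb6), and in 1.6% of all 32851 promoters. CAGAC was in 15 of the 35 and in 49.6% of all, and GGAATG in 6 of the 35 and in 14.7% of all. A match is a description of letters and no site of binding. The promoters of Itga11, the gene with the largest rise, and Flna, which also rose, are shown with the second of the 2 promoters of Itgb6, which fell, and the matches are in capitals: none in Itga11, a GGAATG match read on the opposite strand in Flna, 146 bases upstream of the start, and a CArG box in Itgb6, 50 bases upstream. The first Itgb6 promoter, not shown, holds no CArG box and a CAGAC match 147 bases upstream. No match overlapped another. They lie at chr9:62677605-62677904 (plus strand), chrX:74246485-74246784 (minus strand) and chr2:60673644-60673943 (minus strand).
Itga11 promoter: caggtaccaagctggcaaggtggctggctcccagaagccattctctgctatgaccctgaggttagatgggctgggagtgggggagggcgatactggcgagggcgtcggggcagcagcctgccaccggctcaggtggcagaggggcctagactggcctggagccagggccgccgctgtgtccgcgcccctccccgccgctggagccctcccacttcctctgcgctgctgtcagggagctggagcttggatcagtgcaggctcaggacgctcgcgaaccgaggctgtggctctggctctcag
Flna promoter: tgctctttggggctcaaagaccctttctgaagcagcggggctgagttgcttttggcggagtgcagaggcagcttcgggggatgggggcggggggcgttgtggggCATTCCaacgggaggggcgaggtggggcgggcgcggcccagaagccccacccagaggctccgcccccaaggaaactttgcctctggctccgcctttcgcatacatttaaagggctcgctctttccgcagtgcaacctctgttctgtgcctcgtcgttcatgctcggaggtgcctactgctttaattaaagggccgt
Itgb6 promoter 2: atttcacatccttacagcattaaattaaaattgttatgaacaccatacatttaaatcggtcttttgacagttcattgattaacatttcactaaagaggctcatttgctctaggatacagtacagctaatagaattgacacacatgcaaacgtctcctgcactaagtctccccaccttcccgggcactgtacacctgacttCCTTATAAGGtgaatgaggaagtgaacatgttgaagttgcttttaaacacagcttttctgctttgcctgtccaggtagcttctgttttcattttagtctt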

How the data were processed

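RNA of primary myoblasts, 3 samples treated with TGFb and 3 untreated, was hybridised to 1-colour Agilent arrays. The authors deposited a scanner file per array that holds probe intensity, extracted and background-subtracted with Feature Extraction 10.7.3.1, per the file headers. They also deposited a table of log2 values with a normalization not given in the sources used here. Its columns had medians of 7.05 to 7.06, correlated across probes at 0.992 to 0.993 with their own arrays. It served as an alternative.

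For the main values, control and outlier spots were left out, processed intensity was put on the log2 scale, the array's 75th percentile was subtracted and spots of a probe were averaged. Probes well above background on at least 3 of 6 arrays were tested, and the brightest stood for its gene (21960 genes). Names were updated through RefSeq accessions (26300 of 55681 probes matched, 2839 names changed, none of the 60 probes described).

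The comparison of TGFb with untreated arrays used lmFit and eBayes of limma 3.58.1 (R 4.3.3), with group as the only term and, beside it, with scan day as a covariate (the day-adjusted fit), and p-values were adjusted by Benjamini-Hochberg at 0.05. The group-only and day-adjusted fits were also run on simulated data in which all 6 arrays were independent. The simulation therefore does not cover the likeness of untreated replicates 1 and 2. The fit that counts untreated replicates 1 and 2 as 1 sample beside the day covariate was added after the data were seen. The integrin and adhesion genes and the other lists were chosen with earlier results of these data known. All 39 genes are described, with values per array for those called in either fit, and from each other list the 4 genes with the smallest adjusted p in the day-adjusted fit. Genes and arrays named beyond this rule were chosen after their values were seen. They are Vcl, Lims2, Itgb5, Itga1, Itga4, Itga7 and Tns3 per array, the dimmer Itgb3 probe, Pdgfrb, and marker genes that passed or dominate a sum. Deviations from the group means of same-numbered arrays correlated at 0.81, -0.72 and 0.69 for replicates 1, 2 and 3. Same-numbered arrays shared a scan day for replicates 1 and 3 and not for replicate 2. These correlations therefore follow the scan days and cannot show whether the samples were paired. No file pairs probes with exons or untranslated regions, so probes are placed by their mm9 coordinates alone. The number of arrays, 6, limits the precision.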

Additional observations from a re-analysis of the deposited data

How the results depend on the processing

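All 11 genes called in the day-adjusted fit kept their direction under every alternative that gave them a value (25 for Itga8 and 26 for each of the others, the main setting included), and no gene of the 36 reversed where it was called. The number of genes called did depend on the settings. With group as the only term, 1 of the 36 was higher and 1 lower, among 153 higher and 155 lower genes in all. The day-adjusted fit gave 6 and 5 (1011 and 1231 of all genes), and 4 higher with untreated replicates 1 and 2 also as 1 sample (308 and 342 of all). The authors' table gave 7 and 6 (1584 and 1722), slide as a block 2 and 3 (365 and 411), slide as a random block 6 and 8 (2084 and 2230), and quantile normalization 2 and 1 (159 and 189). Median scaling gave 0 and 0 (55 and 50; 11 of the 36 had an unadjusted p under 0.05 in limma), and untreated replicates 1 and 2 as 1 sample without scan day gave 0 and 0 (0 and 0 of all; 10 of the 36 and 1460 of all genes at an unadjusted p under 0.05). With the replicate number as a block, for which the labels state no pairing, 0 and 0 of the 36 were called (2 and 0 of all genes). In that limma fit 11 of the 36 and 2948 of all genes had an unadjusted p under 0.05. The cause of these differences was not tested. In the authors' table, arrays of 1 group from different days correlated across genes at 0.991 to 0.993 and arrays of different groups from 1 day at 0.979 to 0.984, against 0.919 to 0.929 and 0.97 to 0.977 in the scanner values.

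Leaving out each array in turn gave 0 to 1 higher and 0 lower genes of the 36 with group only (9 to 10 had an unadjusted p under 0.05 where neither was called), and 2 to 6 higher and 1 to 9 lower in the day-adjusted fit. Over all genes the ranges were 0 to 117 higher and 0 to 78 lower, and 147 to 1535 higher and 183 to 1808 lower in the day-adjusted fit. The median of the 36, 0.04 with group only, ran from -0.12 to 0.33 across both, with 0.30 without TGFb replicate 1 and 0.33 without untreated replicate 3. Probes near background, such as those of Itga8 and Itga1, are limited by signal.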
